A study of Mus musculus with 12 samples.

Results

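Mitosis and kinetochore genes were followed in mouse satellite cells, the stem cells of skeletal muscle, by bulk RNA sequencing. The set held 55 genes taken by symbol for their known roles, and all 55 were found among the 25093 genes of the deposited count table. They were ordered into 8 roles, from the kinases and cyclins that start mitosis, through the spindle checkpoint, the kinetochore, the chromosomal passenger complex, the spindle motors, cytokinesis and chromosome structure, to 2 transcription factors.

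All mice were 3 to 4 months old, carried Pax7-CreERT2/+ (a tamoxifen-inducible Cre recombinase expressed in satellite cells) and the R26R-YFP reporter, and received tamoxifen, the controls included. Gli3 Ctr mice had Gli3+/+ alleles, and Gli3 KO mice had Gli3 fl/fl alleles, from which Cre removes an exon of Gli3, a transcription factor of the Hedgehog pathway. Quiescent satellite cells (QSCs) were sorted from all uninjured hindlimb muscles of several pooled mice as α7-Integrin+ CD34+ cells, in 3 Gli3 Ctr and 3 Gli3 KO libraries. Activated satellite cells (ASCs) were sorted 3 days after cardiotoxin injury from the injured tibialis anterior and gastrocnemius of single mice as α7-Integrin+ VCAM1+ cells, in 6 libraries. Cells positive for CD31, CD45, SCA1 or CD11b were discarded in both sorts. The number of muscles, the gate and the pooling of mice therefore changed together with the cell state, and their parts cannot be told apart.

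The columns of the 6 ASC libraries carry numbers that match no sample label, so these libraries were known by state but not by genotype. They are called ASC A to F by their order in the table, and the Gli3 genotypes were compared in QSCs alone. Titles of 2 ASC samples also name another genotype than the rest of their labels. Libraries held 36886130 to 65750131 estimated counts. Levels are in CPM, counts scaled to library size after TMM normalization over all 12 libraries. Differences are log2 fold changes from edgeR's quasi-likelihood test. That test reports no standard error (SE). The SE given is an approximation, the absolute log2 fold change divided by the square root of the test's F statistic. A gene was called at a Benjamini-Hochberg adjusted p under 0.05 over all genes and a fold change of at least 1.2.

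A cell enters mitosis when cyclin B and Cdk1 form an active kinase, which the phosphatases of the Cdc25 family switch on and the kinases Wee1 and Pkmyt1 hold off. The spindle checkpoint then restrains Cdc20 and the anaphase-promoting complex until every kinetochore, the protein platform on the centromere, is held by microtubules. Satellite cells rest outside the cell cycle in uninjured muscle and divide after injury, and mitotic genes are transcribed mostly in cells that are cycling.

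Several libraries stood apart over these genes. Among QSCs, Gli3 Ctr replicate 1 was the highest library for 39 of the 55 genes, while it was the highest for 13.5% of the 14692 genes of at least 1 CPM. Its level was at least 2 times the mean of the other 5 QSC libraries for 23 of the 55 genes. The same library had the largest QSC sums of macrophage markers (31.0 CPM over 9 genes, against 11.4 to 18.7 CPM), neutrophil markers (18.3 CPM over 5 genes, against 0.783 to 10.1 CPM) and erythroid markers (375 CPM over 5 genes, against 33.8 to 172 CPM). It was also the highest QSC library for endothelial markers (228 CPM over 7 genes, against 139 to 171 CPM) and for the dissociation response, genes that rise in cells during tissue digestion (51203 CPM over 7 genes, against 33746 to 41043 CPM). Their part in its mitotic levels was not tested. Among ASCs, library D was the highest for 47 of the 55 genes (20.6% of 14800 genes) and library F the lowest for 47 of them (31.3% of the genes). Library F also carried 5403 CPM of macrophage markers, against 273 to 863 CPM in libraries A to E. It was the highest ASC library for fibro-adipogenic markers (3903 CPM against 302 to 762 CPM), mural markers (1179 CPM against 239 to 731 CPM), Schwann cell markers (896 CPM against 21.1 to 80.0 CPM) and endothelial markers (377 CPM against 54.0 to 131 CPM). It was also the highest for the dissociation response (4053 CPM against 1305 to 1839 CPM) and for erythroid (527 CPM against 20.1 to 204 CPM), neutrophil (56.1 CPM against 1.11 to 43.8 CPM) and lymphocyte markers (5.34 CPM against 1.05 to 1.45 CPM), and the lowest for myogenic markers (2589 CPM against 3086 to 4058 CPM). The part of these cells and of the digestion in its mitotic levels was not tested. In library F, Lyz2, the most abundant macrophage marker, stood at 3396 CPM and Ptprc, which encodes the CD45 of the sort, at 209 CPM. In a bulk sample, fewer cells of a type and less RNA per cell cannot be told apart.

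The labelled cell type was compared with 12 myogenic markers. They include Itga7, Cd34 and Vcam1, which encode antigens of the sort gates, so these genes are no independent check of the labels. Their summed level was 4691 to 5502 CPM in the QSC libraries and 2589 to 4058 CPM in the ASC libraries. Of the 12 markers, 4 were called higher in ASCs and 8 lower, with a median log2 fold change of −1.16. Of all genes, 30.4% were called higher and 28.8% lower. Chrdl2 and Calcr, markers of quiescence, were lower in ASCs by 7.08 ± 0.494 and 6.80 ± 0.335 on the log2 scale (SE, n = 6 and 6 libraries). Myod1 and Myog, the myogenic factors of activation and differentiation, were higher by 1.90 ± 0.132 and 4.39 ± 0.465. The edgeR quasi-likelihood adjusted p was at most 2.47e-06 for these 4 genes.

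Activated cells carried far more mitotic RNA than quiescent cells. Of the 55 genes, 53 were called higher in ASCs and 0 lower (0 lower also by DESeq2, limma-voom and at an unadjusted p under 0.05), where 59.2% of all genes were called, 30.4% higher and 28.8% lower. Their median log2 fold change was 5.69, a 51.5-fold difference, and that of all 25093 genes was −0.03. The 6 ASC libraries lay above all 6 QSC libraries for 52 of the 55 genes, a pattern seen in 20.6% of all genes. A log2 fold change of 4 or more was reached by 40 of the 55 genes and by 5.08% of all genes, and 21 of the 55 reached 6. The 2 genes not called were Wee1 and Pttg1. Without QSC Gli3 Ctr replicate 1 the number called was again 53 and the median 5.65, and without ASC library F they were 53 and 5.73.

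**Figure D1:**
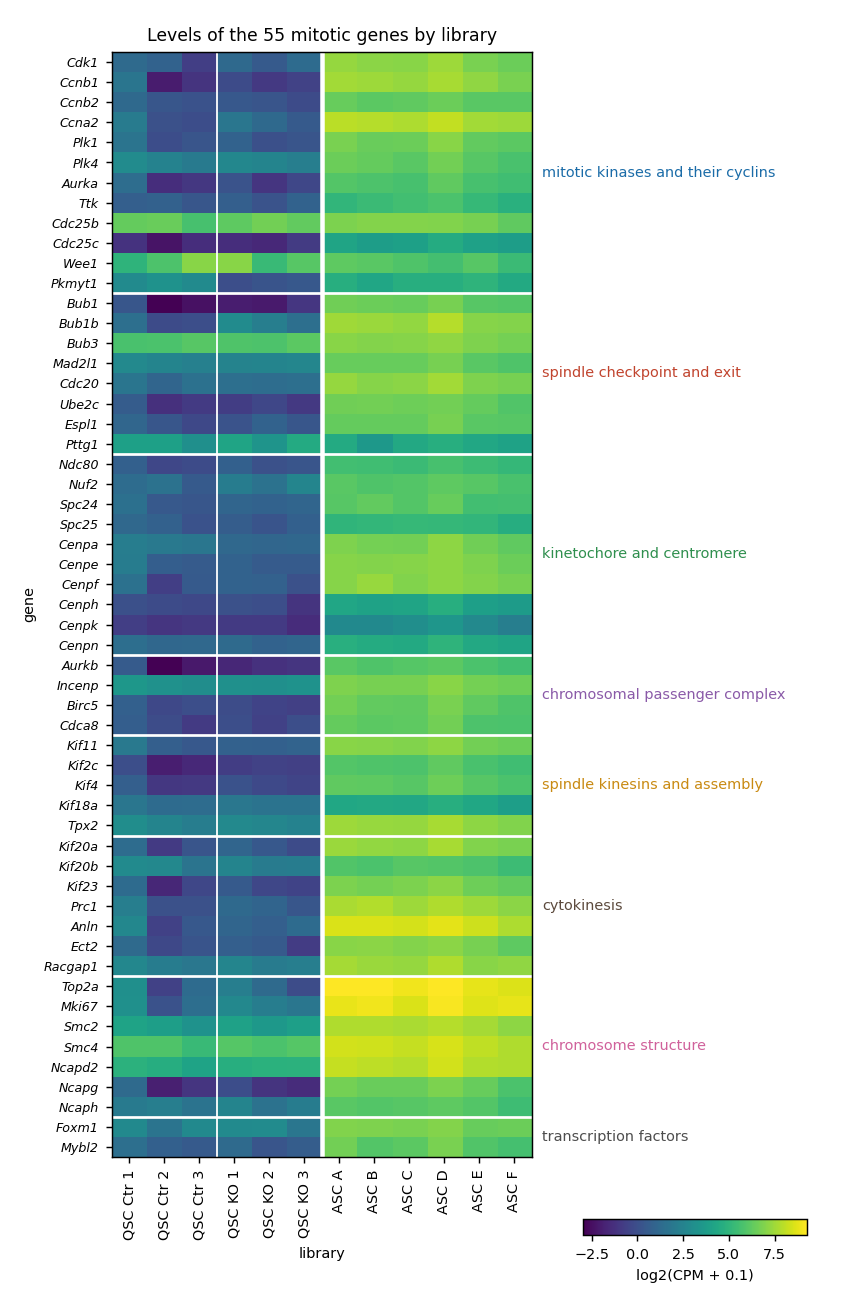
Level of each of the 55 mitotic genes (rows, grouped by role) in each of the 12 libraries (columns: 3 QSC Gli3 Ctr, 3 QSC Gli3 KO, 6 ASC), as log2(CPM + 0.1) on the colour scale. The 6 ASC columns are brighter than the QSC columns for 52 of the 55 genes, and Wee1, Cdc25b and Pttg1 are the rows where the states overlap.

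In QSCs most of these genes were low. The mean level was under 5 CPM for 42 genes and under 1 CPM for 14. Those 14 reached at most 3.35 CPM in any QSC library and were at least 4.66 CPM in every ASC library. The lowest estimated count of a member was 2 in a QSC library and 240 in an ASC library. Only 5 genes exceeded 20 CPM in QSCs, namely Cdc25b, Wee1, Bub3, Smc4 and Ncapd2, and these 5 made up 67.7% of the mitotic CPM of QSCs and 13.4% of that of ASCs. Their summed level was 301 CPM in QSCs and 870 CPM in ASCs on average, a ratio of 2.89. The other 50 genes summed to 144 CPM in QSCs and 5644 CPM in ASCs, a ratio of 39.3. By library, that sum was 209, 125 and 106 CPM in Gli3 Ctr QSCs, 163, 123 and 135 CPM in Gli3 KO QSCs and 4271 to 6990 CPM in ASCs. The coefficient of variation between libraries had a median over the members of 40.3% in QSCs and 18.5% in ASCs.

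**Figure D2:**
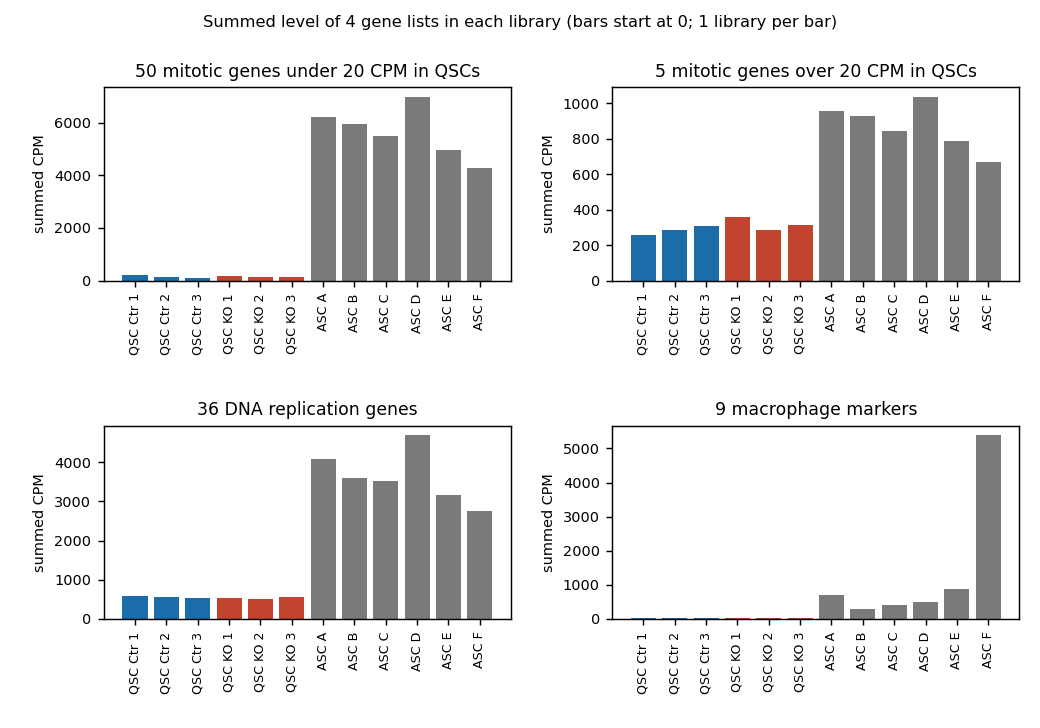
Summed CPM (y axis, from 0) of 4 gene lists in each library (x axis), with blue bars for QSC Gli3 Ctr, red bars for QSC Gli3 KO and grey bars for ASC libraries A to F. The sum of the 50 mitotic genes that are low in QSCs is 106 to 209 CPM in QSCs and 4271 to 6990 CPM in ASCs, with library F lowest among the ASC libraries, where the macrophage markers reach 5403 CPM.

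The promoters of members were examined because genes of late cell cycle phases commonly share a CCAAT box and the CHR element (cell cycle genes homology region), at which the DREAM complex and the B-MYB and FOXM1 factors act. RefSeq windows on GRCm38.p6, from 250 bases before to 50 after each gene's start, were held for 44 of the 55 genes. Bub3, Cenpk, Ect2 and Prc1 had several windows, and a match in any of them was counted. The CHR letters (TTTGAA on either strand or the palindrome TTCGAA) were found for 32 of the 44 genes (72.7%). Of all 27025 genes with a window, 21.7% had them. CCAAT on either strand was found in 32 of the 44 (72.7%) and in 41.1% of all genes, and both kinds in 28 (63.6%) and in 8.61% of all genes. The 32 genes with CHR letters had a median ASC over QSC log2 fold change of 6.0, and the 12 without had one of 4.21. Such a match is a description of the letters and not a site of binding. The 8 genes with neither kind were Pttg1, which was not called between the states, and Birc5, Mybl2, Nuf2, Ncaph, Mad2l1, Plk4 and Kif18a, which were called higher by 2.75 to 6.61. Cdc25b and Bub3, with small differences, had both kinds. In all, 5 windows are shown for genes of different roles, each the 130 bases before the RefSeq start, written 5′ to 3′ along the gene's strand with CHR and CCAAT letters of either strand in capitals.
Cdk1 (minus strand, chr10:69352913-69353042): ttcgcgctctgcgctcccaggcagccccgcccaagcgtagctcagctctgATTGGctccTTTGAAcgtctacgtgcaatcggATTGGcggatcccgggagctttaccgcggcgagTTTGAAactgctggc
Ccnb2 (minus strand, chr9:70421555-70421684): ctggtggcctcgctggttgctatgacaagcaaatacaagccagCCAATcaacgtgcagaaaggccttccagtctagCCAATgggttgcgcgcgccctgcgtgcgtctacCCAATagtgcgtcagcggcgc
Cdc20 (minus strand, chr4:118437344-118437473): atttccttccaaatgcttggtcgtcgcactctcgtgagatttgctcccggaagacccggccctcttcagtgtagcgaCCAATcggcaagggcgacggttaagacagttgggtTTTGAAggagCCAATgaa
Espl1 (plus strand, chr15:102296163-102296292): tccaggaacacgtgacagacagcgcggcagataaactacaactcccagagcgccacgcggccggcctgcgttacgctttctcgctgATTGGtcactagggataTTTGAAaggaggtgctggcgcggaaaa
Mki67 (minus strand, chr7:135716380-135716509): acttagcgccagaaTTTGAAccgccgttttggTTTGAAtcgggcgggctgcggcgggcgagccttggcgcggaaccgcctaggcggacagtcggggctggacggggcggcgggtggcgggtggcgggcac

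In the Cdk1 and Espl1 windows a CCAAT box on the reverse strand lies upstream of CHR letters, and in the Cdc20 window a CCAAT box lies on either side of them. The Ccnb2 window shows 3 CCAAT boxes, starting 87, 54 and 21 bases before the start, and the Mki67 stretch 2 CHR matches. Both genes held both kinds in the whole window, since 2 CHR matches of Ccnb2 and 3 CCAAT boxes of Mki67 lie outside the stretches shown. The start sites of GENCODE vM21 lie further upstream for 3 of these genes, so that 26 bases of the Cdk1 stretch, 27 of the Espl1 stretch and 9 of the Cdc20 stretch fall inside the annotated gene. All 5 genes were called higher in ASCs, by 5.72 to 6.68 on the log2 scale.

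Among the 12 mitotic kinases, cyclins and their regulators, 11 were called higher in ASCs, with a median log2 fold change of 5.94. Cdk1 (ENSMUSG00000019942.13, GRCm38 chr10:69335146-69352938, minus strand), the kinase that drives entry into mitosis, ranged from 0.515 to 2.35 CPM in QSCs (median 1.96) and from 92.2 to 177 CPM in ASCs (median 139). The states did not overlap, and the log2 fold change was 6.29 ± 0.339 (SE, edgeR quasi-likelihood adjusted p = 5.36e-09). Its partner Ccnb1, cyclin B1, ranged from 0.147 to 3.35 CPM in QSCs (median 0.509) and from 112 to 204 CPM in ASCs (median 169), a difference of 7.51 ± 0.654. The highest QSC value belonged to Gli3 Ctr replicate 1, and the other 5 QSC libraries were at or below 0.804 CPM. Without that library the difference was 8.49. Ccna2, cyclin A2, was the gene of this role with the highest ASC level per kb of exon, 55.1 CPM per kb, and rose from 0.850 to 4.29 CPM in QSCs to 175 to 282 CPM in ASCs (medians 1.77 and 226, difference 6.70 ± 0.428). Plk1, Aurka and Ttk, kinases of centrosome maturation, spindle assembly and the checkpoint, were higher by 6.01, 6.07 and 4.79, and Plk4, which starts centriole duplication, by 3.78.

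The regulators of Cdk1 phosphorylation differed from each other in level and change. Cdc25c, a phosphatase that activates Cdk1, was at 0.103 to 0.454 CPM in QSCs and 14.2 to 23.5 CPM in ASCs, a difference of 5.89 ± 0.314. Cdc25b, its relative, was already at 51.1 to 100 CPM in QSCs (median 80.0) and at 77.5 to 128 CPM in ASCs (median 120). These ranges overlapped, and the difference was 0.52 ± 0.157 (edgeR quasi-likelihood adjusted p = 0.0112). With the Gli3 KO QSCs alone as the quiescent group it was 0.42 and was not called (edgeR quasi-likelihood adjusted p = 0.0685). Wee1, the nuclear kinase that inhibits Cdk1, was the only member whose mean was lower in ASCs. Its level spread from 31.3 to 135 CPM in QSCs (median 61.7) and from 41.6 to 74.7 CPM in ASCs (median 62.8). The ASC values lay inside the QSC range, and the difference of −0.36 ± 0.333 was not called (edgeR quasi-likelihood adjusted p = 0.366). By limma-voom it was 0.10 (adjusted p = 0.806). Pkmyt1, the membrane-bound kinase that inhibits Cdk1, was at 0.881 to 9.61 CPM in QSCs (median 4.21) and at 19.2 to 31.1 CPM in ASCs (median 25.9). The states did not overlap, and the difference was 2.46 ± 0.566 (edgeR quasi-likelihood adjusted p = 0.00199). Its QSC values fell into separate levels by genotype, described below, and the difference was 1.63 against Gli3 Ctr QSCs and 4.56 against Gli3 KO QSCs.

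Of the 8 genes of the spindle checkpoint and mitotic exit, 7 were called higher in ASCs, with a median of 5.70. Bub1 (ENSMUSG00000027379.13, chr2:127801122-127831865, minus strand), a checkpoint kinase of the kinetochore, had the largest difference of all 55 genes, 8.15 ± 0.628 (edgeR quasi-likelihood adjusted p = 1.2e-07). Its level was 0.0294 to 1.15 CPM in QSCs (median 0.145) and 63.1 to 109 CPM in ASCs (median 89.2). The states were far apart, and the lowest QSC library rested on 2 counts. The difference ranged from 7.78 to 9.09 over the alternatives, the latter without QSC Gli3 Ctr replicate 1, the highest QSC library. Bub1b, which encodes BUBR1 of the mitotic checkpoint complex, was at 0.794 to 7.53 CPM in QSCs (median 2.77) and 126 to 240 CPM in ASCs (median 163), a difference of 5.69 ± 0.530. Over the alternatives the Bub1b difference ranged from 5.058 to 6.835. Mad2l1, the MAD2 protein of the same complex, was higher by 3.79 ± 0.146. Cdc20, the activator of the anaphase-promoting complex that this checkpoint restrains, had the highest ASC level per kb of all 55 genes, 75.4 CPM per kb. It was at 1.91 to 3.37 CPM in QSCs (median 2.71) and 108 to 190 CPM in ASCs (median 134), a difference of 5.72 ± 0.183. Ube2c, the ubiquitin-conjugating enzyme of that complex, was at 0.323 to 1.42 CPM in QSCs (median 0.473) and 60.7 to 100 CPM in ASCs (median 96.1), a difference of 7.17 ± 0.345. None of these genes overlapped between the states.

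Bub3 and Pttg1 differed less between the states than the other genes of their role. Bub3, a WD-repeat protein that carries BUB1 and BUBR1 to kinetochores, was at 54.2 to 71.5 CPM in QSCs (median 59.0) and 103 to 148 CPM in ASCs (median 128). Every ASC library was above every QSC library, by 1.05 ± 0.105 on the log2 scale (edgeR quasi-likelihood adjusted p = 1.36e-06). Pttg1 (ENSMUSG00000020415.16, chr11:43420250-43426251, minus strand) encodes securin, the inhibitor of separase. It was at 8.61 to 22.7 CPM in QSCs (median 15.7) and 11.6 to 25.9 CPM in ASCs (median 20.8), so that the states overlapped, with a difference of 0.38 ± 0.242 that was not called (edgeR quasi-likelihood adjusted p = 0.198). Its target Espl1, separase itself, was higher by 5.98 ± 0.249, from 0.716 to 2.00 CPM in QSCs to 67.9 to 106 CPM in ASCs.

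All 10 kinetochore and centromere genes were called higher in ASCs, by 3.46 to 6.47 with a median of 4.86. The 4 subunits of the NDC80 complex, which binds microtubules, were higher by 5.29 (Ndc80), 5.17 (Spc24), 4.48 (Spc25) and 4.26 (Nuf2). Spc24, with the highest ASC level per kb of the role at 25.4 CPM per kb, was at 1.14 to 2.87 CPM in QSCs (median 1.84) and 47.1 to 84.5 CPM in ASCs (median 65.6). Nuf2 was at 1.34 to 5.88 CPM in QSCs (median 3.04) and 54.4 to 74.0 CPM in ASCs (median 65.5). Neither gene overlapped between the states. Cenpa, the histone H3 variant that marks centromeres, was at 2.03 to 4.49 CPM in QSCs (median 2.84) and 77.8 to 145 CPM in ASCs (median 103), a difference of 5.16 ± 0.251. Cenpe, a kinesin of the kinetochore, was at 1.36 to 4.42 CPM in QSCs (median 1.45) and 89.8 to 143 CPM in ASCs (median 130), a difference of 5.99 ± 0.325. The inner kinetochore genes Cenph, Cenpk and Cenpn were higher by 4.56, 4.17 and 3.46, and Cenpk had the lowest ASC level of all 55 genes, 1.43 CPM per kb.

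The chromosomal passenger complex corrects wrong attachments of microtubules, and all 4 of its genes were called higher. Aurkb, its kinase, was at 0.0294 to 1.35 CPM in QSCs (median 0.282) and 47.3 to 72.2 CPM in ASCs (median 62.4), a difference of 7.30 ± 0.601 (8.12 without QSC Gli3 Ctr replicate 1). Incenp, its scaffold, was at 7.96 to 11.2 CPM in QSCs (median 9.10) and 93.0 to 134 CPM in ASCs (median 108), a difference of 3.58 ± 0.114. The states did not overlap for either gene, and Birc5 (survivin) and Cdca8 (borealin) were higher by 6.61 and 6.43. Incenp was thus the member of the complex with the most RNA in QSCs, 2.14 CPM per kb, against 0.139 for Aurkb, 0.256 for Birc5 and 0.165 for Cdca8. In ASCs the 4 genes lay within 14.2 to 25.5 CPM per kb.

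Spindle motors and assembly factors were all called higher, 5 of 5, with a median of 5.96. Kif2c, which removes tubulin from microtubule ends, was at 0.162 to 0.874 CPM in QSCs (median 0.525) and 45.2 to 78.3 CPM in ASCs (median 58.3), a difference of 6.95 ± 0.351. Tpx2, the activator of Aurora A on the spindle, had the highest ASC level per kb of the role, 34.4 CPM per kb, and was at 4.50 to 7.94 CPM in QSCs (median 5.96) and 124 to 204 CPM in ASCs (median 161), a difference of 4.72 ± 0.167. Kif18a, a motor that limits chromosome oscillation, was at 2.42 to 3.56 CPM in QSCs (median 3.11) and 14.6 to 26 CPM in ASCs (median 20.1), a difference of 2.75 ± 0.169. The states stayed apart for each of these, with the smallest gap for Kif18a.

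The 7 cytokinesis genes had the highest median of the 8 roles, 6.62, and all were called higher. Anln, anillin, the scaffold of the contractile ring, was at 0.573 to 6.34 CPM in QSCs (median 1.77) and 216 to 425 CPM in ASCs (median 362). The ASC libraries were all far above the QSC libraries, by 7.22 ± 0.532 (7.81 without QSC Gli3 Ctr replicate 1). Kif20a, Kif23, Prc1 and Ect2, motors and regulators of the central spindle, were higher by 6.62 to 6.86, Racgap1 by 5.13 and Kif20b by 3.47.

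Chromosome structure genes were called higher in 7 of 7 cases, with a median of 3.94, and Smc4 and Top2a had ASC levels of 58.7 and 58.2 CPM per kb, the highest of the 55 genes after Cdc20. Top2a (ENSMUSG00000020914.17, chr11:98992943-99024189, minus strand), the topoisomerase that untangles sister chromatids, was at 0.558 to 8.69 CPM in QSCs (median 2.35) and 385 to 609 CPM in ASCs (median 548), a difference of 7.34 ± 0.644. Mki67, the coat protein of mitotic chromosomes that serves as the marker Ki-67, was at 0.985 to 8.89 CPM in QSCs (median 3.99) and 382 to 561 CPM in ASCs (median 451), a difference of 6.68 ± 0.462. For both genes the highest QSC value was that of Gli3 Ctr replicate 1 and lay far below the lowest ASC value. The condensin I subunits split by gene. Ncapg was at 0.176 to 2.35 CPM in QSCs (median 0.373) and 55.9 to 114 CPM in ASCs (median 87.6), a difference of 6.98 ± 0.581 (7.78 without QSC Gli3 Ctr replicate 1), and Ncaph was higher by 3.94. Ncapd2 was at 17.1 to 29.5 CPM in QSCs (median 27.5) and 223 to 346 CPM in ASCs (median 251), a difference of 3.34 ± 0.160. Smc4, the core ATPase that condensin I shares with condensin II, was at 40.3 to 64.7 CPM in QSCs (median 59.3) and 225 to 370 CPM in ASCs (median 314), a difference of 2.42 ± 0.146, and its partner Smc2 was higher by 3.87. No condensin gene overlapped between the states.

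Both transcription factors were called higher. Foxm1, which drives genes of G2 and mitosis, was at 3.23 to 7.51 CPM in QSCs (median 7.02) and 86.3 to 125 CPM in ASCs (median 115), a difference of 4.21 ± 0.241. Mybl2 (B-MYB) was at 1.11 to 2.70 CPM in QSCs (median 1.56) and 50.4 to 111 CPM in ASCs (median 68), a difference of 5.45 ± 0.286. The states did not overlap for either factor. Over the 53 genes called, adjusted p was 0.0112 for Cdc25b, 0.00199 for Pkmyt1 and at most 1.36e-06 for the other 51 (edgeR's quasi-likelihood test).

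**Figure D3:**
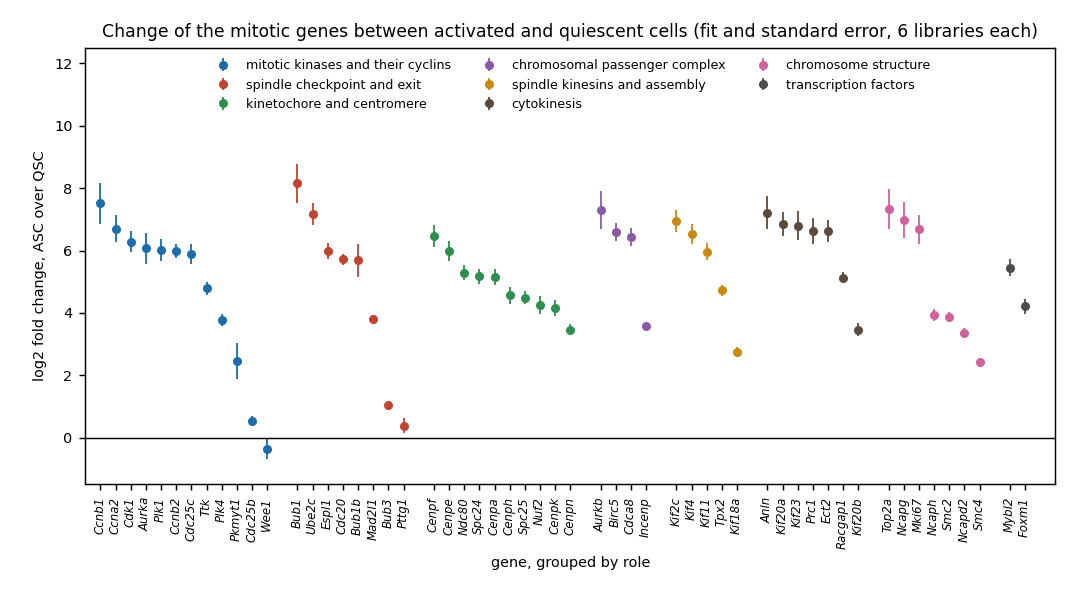
Fitted log2 fold change of ASC over QSC (y axis) for each of the 55 genes (x axis, coloured and grouped by role), with bars of 1 standard error from 6 QSC and 6 ASC libraries. Values run from 8.15 for Bub1 to −0.36 for Wee1, and Wee1, Cdc25b, Pttg1 and Bub3 lie nearest to 0.

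Other genes of the mitotic machinery, listed apart from the 55, differed less on the whole. Of 100 such genes, 85 were called higher in ASCs and 8 lower, with a median log2 fold change of 1.79. All 27 further kinetochore genes were called higher, with a median of 2.90, from 0.36 for Cenpc1, which binds centromeric nucleosomes, and 0.41 for Cenpo to 6.46 for Kntc1 and 6.87 for Ska1, which loads on microtubules. Of 27 spindle and cytokinesis genes 26 were called higher (median 3.38), led by Cep55, the organizer of abscission, at 7.23 ± 0.476 and Kif18b at 6.94 ± 0.551. Numa1, a pole protein that is also part of the interphase nucleus, was lower by 0.95 ± 0.106 on the log2 scale, from 322 to 466 CPM in QSCs to 185 to 236 CPM in ASCs. The 18 further kinases and regulators had 17 called higher (median 4.98), with Cdca3 at 7.31 and Depdc1a at 7.30, and Ensa lower by 0.85. The 15 subunits and activators of the anaphase-promoting complex had 7 called higher and 3 lower, with a median of 0.19, where 30.4% of all genes were called higher and 28.8% lower. Anapc15 was higher by 2.37 and Fzr1, the activator of late mitosis and G1, by 1.75, while Anapc16 and Anapc11 were lower by 1.23 and 0.50. In the 13 genes of cohesin and condensin II, 8 were called higher and 3 lower (median 0.52), from Cdca5 (sororin) at 6.38 and Ncapg2 at 2.71 to Stag2 and Nipbl, lower by 0.64 and 0.89.

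The 36 DNA replication genes, which act in the preceding phase, were called higher in 35 cases, with a median of 3.01, led by Tk1 at 6.73 and Mcm10 at 6.61. The gene not called was Orc6 (−0.06, edgeR quasi-likelihood adjusted p = 0.773). Among 15 genes of G1, 12 were called higher and 2 lower (median 2.08), with Ccne1 and Ccne2, the E cyclins, at 6.74 and 5.45, and Ccnd3 and the inhibitor Cdkn1b lower by 0.52 and 1.17. In the DREAM and MuvB complex, which represses mitotic genes in resting cells, 7 of 12 genes were called higher and 4 lower (median 0.91). Of all genes, 30.4% were called higher and 28.8% lower, so the share called lower in this complex was near that of all genes. Rbl1 (p107) was higher by 3.77 and Tfdp1 by 2.08, while Rbl2 (p130) and Tfdp2 were lower by 1.52 and 1.83. Rbl2 was at 64.2 to 101 CPM in QSCs and 24.2 to 45.6 CPM in ASCs, without overlap.

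Of the lists of markers of cells outside the myogenic lineage, the macrophage list was the one with every member called higher in ASCs. Its 9 markers had a median log2 fold change of 6.87, and 30.4% of all genes were called higher and 28.8% lower. The summed macrophage level was 11.4 to 31.0 CPM in QSCs and 273 to 5403 CPM in ASCs. Of 5 neutrophil markers 1 was called higher, and of 6 Schwann cell markers 2 (1 by limma-voom). The 6 myofiber markers had 4 called higher (3 higher and 1 lower by limma-voom). The 6 fibro-adipogenic markers had 4 called higher (3 by DESeq2 and 3 by limma-voom) and 1 lower. The 6 mural markers had 2 called higher (1 by limma-voom) and 3 lower. The 7 endothelial markers had 0 called higher (1 by DESeq2, 0 by limma-voom and 1 at an unadjusted p under 0.05) and 1 lower. No erythroid or lymphocyte marker was called by edgeR or DESeq2, and 0 of 5 erythroid genes had an unadjusted p under 0.05. For the 5 lymphocyte markers the tools differed in direction, with 1 higher at an unadjusted p under 0.05 by edgeR and 1 called lower by limma-voom. The 7 genes of the dissociation response were all called lower in ASCs (median −3.92), with summed levels of 33746 to 51203 CPM in QSCs and 1305 to 4053 CPM in ASCs. The part of these cells and of the digestion in the mitotic levels was not tested. ASC library F had the lowest mitotic sum, 4941 CPM, and the highest macrophage sum, but also the highest fibro-adipogenic, mural, Schwann cell and endothelial sums. In libraries A to E the mitotic sums were 7158, 6866, 6334, 8027 and 5756 CPM. Their macrophage sums, in the same order, were 697, 273, 400, 493 and 863 CPM. Among A to E, library E had the most macrophage RNA and the lowest mitotic sum. Library B had the least macrophage RNA, but the highest mitotic sum was in library D.

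The Gli3 genotypes were compared in QSCs to ask whether mitotic genes differed between them before injury. The strain background of single libraries is not given in the sources used here, and its part in differences between the genotypes was not tested. Gli3 itself was at 11.3, 9.63 and 9.40 CPM in Gli3 Ctr and 9.58, 10.7 and 6.27 CPM in Gli3 KO libraries. The genotypes overlapped (log2 fold change −0.22 ± 0.220, edgeR quasi-likelihood adjusted p = 0.916), so that the count of the whole gene, which does not separate the floxed exon, does not check the labels.

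Of the 55 mitotic genes, 1 was called in Gli3 KO QSCs, and it was lower. Of all 25093 genes, 0.351% were called, 0.187% higher and 0.163% lower. The number called higher was 0 by edgeR and limma-voom and 1 by DESeq2. At an unadjusted p under 0.05 there were 4 of the 55 genes, 2 in each direction, against 7.11% of all genes. Gli3 KO libraries lay below all Gli3 Ctr libraries for 2 of the 55 genes (5.75% of all genes) and above them for 0 (7.39%), where 13.1% of all genes did not overlap either way. The median log2 fold change was −0.07 for the 55 genes and −0.03 for all genes. Without Gli3 Ctr replicate 1 the median of the 55 genes was 0.29.

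The gene called was Pkmyt1 (ENSMUSG00000023908.8, chr17:23726336-23736735, plus strand). It was at 7.19, 9.61 and 7.32 CPM in Gli3 Ctr and 0.881, 1.07 and 1.22 CPM in Gli3 KO libraries. Every Gli3 KO library lay far below every Gli3 Ctr library. The log2 fold change was −2.96 ± 0.247 (edgeR quasi-likelihood adjusted p = 0.00108, n = 3 and 3 libraries), and it was called under all 13 alternatives, with values from −3.08 to −2.81. Neither Wee1, the other inhibitory kinase of Cdk1, nor the Cdc25 phosphatases were called. Wee1 was at 31.3, 56.5 and 134 CPM in Gli3 Ctr and 135, 40.2 and 67.0 CPM in Gli3 KO libraries, which overlap widely (0.08 ± 0.554).

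Pkmyt1 shares 319 exon bases with Paqr4, an adiponectin receptor family gene on the opposite strand. The library kit keeps the strand, and whether the counting used it is not given in the sources used here. Paqr4 was at 6.12, 5.91 and 5.30 CPM in Gli3 Ctr and 4.50, 3.37 and 2.70 CPM in Gli3 KO libraries. These groups did not overlap, but the difference of −0.74 ± 0.239 was not called (edgeR quasi-likelihood adjusted p = 0.462). Within 250 kb on either side of Pkmyt1 the table holds 24 genes, itself included, and 1 of the others was called. This was Prss41, a serine protease gene, which was at 0.0499, 0.323 and 0.201 CPM in Gli3 Ctr and 5.63, 5.73 and 5.62 CPM in Gli3 KO libraries (log2 fold change 4.76 ± 0.480, edgeR quasi-likelihood adjusted p = 0.00367). Its neighbour Prss33, also a serine protease gene and named after its values were seen, was at 0.0499, 0.0735 and 0.0224 CPM in Gli3 Ctr and 0.728, 0.472 and 0.848 CPM in Gli3 KO libraries. These groups did not overlap either, and the difference of 3.67 ± 0.607 was not called (edgeR quasi-likelihood adjusted p = 0.0536). Zfp213 (−0.36 ± 0.189) and 1520401A03Rik (−3.13 ± 1.589, at most 0.157 CPM in any QSC library) were lower without overlap in Gli3 KO and were not called. 9530082P21Rik was higher without overlap (0.73 ± 0.251) and not called, and the remaining genes of the window overlapped between the genotypes.

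**Figure D4:**
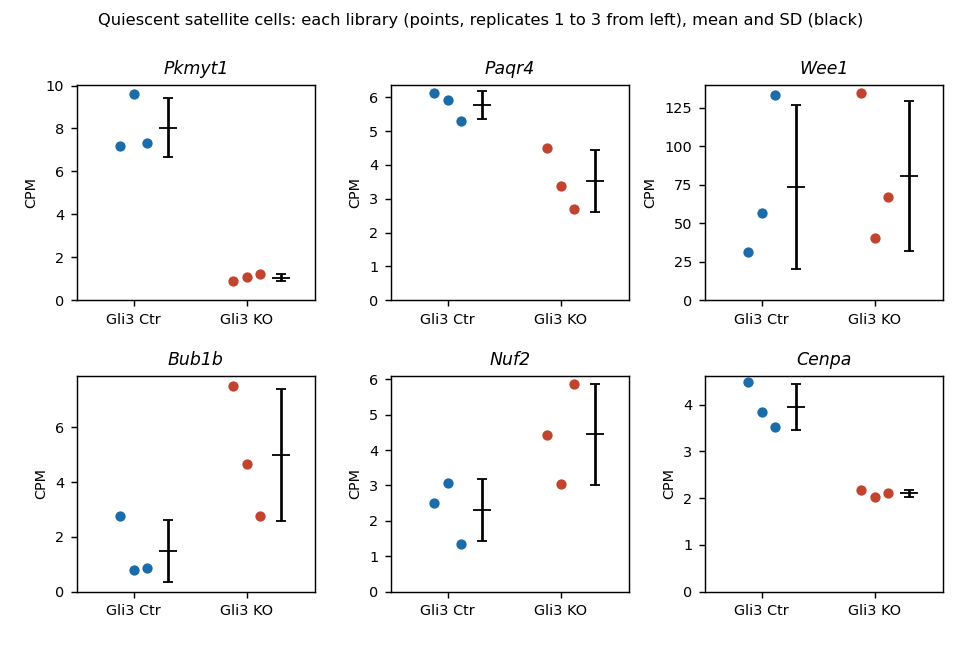
CPM (y axes, from 0) of Pkmyt1, its neighbour Paqr4, Wee1, Bub1b, Nuf2 and Cenpa in the QSC libraries by genotype (x axes), 1 coloured point per library and the mean with SD in black (n = 3 each). Pkmyt1 is at 7.19 to 9.61 CPM in Gli3 Ctr and 0.881 to 1.22 CPM in Gli3 KO, and the points of Wee1, Bub1b and Nuf2 overlap between the genotypes.

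The other 3 genes at an unadjusted p under 0.05 were not called. Cenpa was at 4.49, 3.84 and 3.51 CPM in Gli3 Ctr and 2.16, 2.03 and 2.11 CPM in Gli3 KO libraries. Its groups did not overlap, and the difference was −0.94 ± 0.225 (edgeR quasi-likelihood adjusted p = 0.227, 0.0121 from DESeq2). Bub1b was at 2.77, 0.794 and 0.873 CPM in Gli3 Ctr and 7.53, 4.68 and 2.76 CPM in Gli3 KO libraries. Its highest Gli3 Ctr library was just above its lowest Gli3 KO library, and the difference was 1.75 ± 0.537 (edgeR quasi-likelihood adjusted p = 0.427, 0.0456 from DESeq2). It was 2.54 without Gli3 Ctr replicate 1 (edgeR quasi-likelihood adjusted p = 0.09) and 1.31 without Gli3 KO replicate 1, and over all alternatives the adjusted p ran from 0.0456 to 0.686. Nuf2 was at 2.5, 3.06 and 1.34 CPM in Gli3 Ctr and 4.42, 3.03 and 5.88 CPM in Gli3 KO libraries, overlapping in 1 library of each, with a difference of 0.92 ± 0.359 (edgeR quasi-likelihood adjusted p = 0.630).

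None of the genes with the largest activation differences was called between the genotypes. Ccnb1 was at 3.35, 0.147 and 0.358 CPM in Gli3 Ctr and 0.804, 0.426 and 0.592 CPM in Gli3 KO libraries, so that the Gli3 KO values lay between those of the controls (−1.07 ± 0.949). Top2a was at 8.69, 0.558 and 2.35 CPM in Gli3 Ctr and 4.79, 2.35 and 0.809 CPM in Gli3 KO libraries (−0.55 ± 0.872). Mki67 was at 8.89, 0.985 and 2.66 CPM in Gli3 Ctr and 6.53, 4.55 and 3.43 CPM in Gli3 KO libraries (0.20 ± 0.644). The genotypes overlapped in all 3 genes. Without Gli3 Ctr replicate 1 the difference became 1.24 for Ccnb1, 0.82 for Top2a and 1.37 for Mki67, and without Gli3 KO replicate 1 it was −1.30 for Top2a. None of these was called. Cdk1 was at 2.32, 1.72 and 0.515 CPM in Gli3 Ctr and 2.20, 1.34 and 2.35 CPM in Gli3 KO libraries (0.35 ± 0.493), and Cenpe at 4.42, 1.51 and 1.36 CPM against 1.76, 1.39 and 1.38 CPM (−0.70 ± 0.451, and 0.023 without Gli3 Ctr replicate 1). The factors Foxm1 (0.05 ± 0.373) and Mybl2 (−0.22 ± 0.384) overlapped as well. The SEs of these 7 genes ran from 0.373 to 0.949 on the log2 scale, and a difference of only 1 SE would not be called. Differences of several SEs also went uncalled by edgeR, as for Cenpa (−0.94 ± 0.225) and Bub1b (1.75 ± 0.537). The smallest detectable difference was not computed.

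None of the 100 other mitotic genes and none of the 12 DREAM and MuvB genes was called between the genotypes by edgeR, DESeq2 or limma-voom, and none had an unadjusted p under 0.05. Of all 25093 genes, 7.11% had an unadjusted p under 0.05 by edgeR. The genes called were 88 by edgeR (0.351%), 384 by DESeq2 and 73 by limma-voom. Of the 36 DNA replication genes 0 were called by edgeR, 2 were lower at an unadjusted p under 0.05, and 1 was called lower by DESeq2. Of the 15 G1 genes 0 were called by any of the 3 tools, with 1 at an unadjusted p under 0.05. The summed level of 6 Schwann cell markers was 91.9, 69.8 and 99.9 CPM in Gli3 Ctr and 33.2, 51.1 and 49.5 CPM in Gli3 KO libraries, which do not overlap. Of these markers 4 were lower at an unadjusted p under 0.05, with 0 called by edgeR and 2 by DESeq2. Of 6 mural markers 2 were lower at an unadjusted p under 0.05, with 0 called by edgeR and 1 by DESeq2, and of 12 myogenic markers 2 were higher, with 0 called by edgeR and 1 by DESeq2. Their part in the mitotic levels of QSCs was not tested.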

How the data were processed

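RNA was measured in 12 satellite cell libraries made with a directional polyA kit. The authors quantified reads with Salmon against mouse transcripts (GRCm38, per the submitters' processing notes) and summed them per gene, and the deposited table holds estimated counts for 25093 genes, with 48.0% of values not whole. Per the study's methods, a gene was retained where 2 or more samples had 5 or more reads. The deposited tables of the authors' DESeq2 comparisons hold fold changes and p-values and were not used here.

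Counts were rounded and fitted with edgeR 4.0.16 (R 4.3.3; TMM, glmQLFit and glmQLFTest, limma 3.58.1 loaded) without a further filter, on all 25093 genes, once for ASC against QSC over 12 libraries and once for Gli3 KO against Gli3 Ctr over the 6 QSC libraries. P-values were adjusted by Benjamini-Hochberg over all genes. The p-values measure the spread between these libraries. The scripts were tested on simulated data. The genotype of the ASC columns could not be taken from the labels, so no ASC genotype comparison was made (not analysed here). The 172 rows without a symbol stayed in the fits under their identifiers. DESeq2 1.42.0, limma-voom, other normalizations, filters, left-out libraries and each QSC genotype alone were alternatives.

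The members and lists were chosen with earlier results of these data known. Values by library, or the lowest, median and highest in groups of 6, are given for several sets of members. These are the 8 with the largest and the 8 with the smallest state differences, and those at an unadjusted p under 0.05 between genotypes. The gene of each role with the highest level per kb is included, as are Cdk1, Ccnb1, Cenpe, Foxm1, Mybl2, Mki67 and Top2a. From each other list, up to 2 genes with the largest change each way are named. Others were chosen after their values were seen. Gene positions and exon lengths came from GENCODE vM21 (GRCm38), where 51 of the 55 members had the same version. Promoter sequences came from RefSeq, GRCm38.p6. Of the members, 14 share exon bases with a gene on the opposite strand and 3 with one on the same strand, and whether the counting used strand is not given in the sources used here.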

Additional observations from a re-analysis of the deposited data

Results flagged for a closer look

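Single libraries stood outside their group for 8 of 60 groups of 6 libraries examined, by Dixon's test at the 95% level, and chance flags about 1 in 20 such groups. In QSC Gli3 Ctr replicate 1, 7 genes were high. Bub1 was at 1.15 CPM there (next highest QSC library 0.395), Ccnb1 at 3.35 (0.804), Aurkb at 1.35 (0.375) and Anln at 6.34 (2.35). Ube2c was at 1.42 CPM (0.67), Ncapg at 2.35 (0.843) and Cenpe at 4.42 (1.76). In QSC Gli3 Ctr replicate 3, Ncapd2 was low at 17.1 CPM, and the next lowest QSC library was at 25.3 CPM.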

How the results depend on the processing

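In ASC against QSC, the mitotic genes called numbered 50 to 53 over 21 alternatives, the 50 being of the 52 genes left when at least 10 counts were required in every library, and the median log2 fold change stayed within 5.36 and 5.76 (5.49 to 5.75 when 1 library was left out). Cdc25b was not called with the Gli3 KO QSCs alone as the quiescent group (0.42), and Wee1 was 0.10 by limma-voom. The cause was not tested. Between the genotypes, 88 genes were called in all, 384 with DESeq2 and 48 when at least 10 counts were required in every library, where 16759 genes were tested. Leaving out 1 library gave 58 to 103 calls, the lowest without Gli3 KO replicate 3. The number of mitotic genes called was 3 with DESeq2, which added Bub1b (1.75) and Cenpa (−0.93), and 1 otherwise. Leaving out 1 library moved the median from −0.26 to 0.29 and turned the sign of 7 of the 10 uncalled genes for which it was computed, with ranges of −0.98 to 0.023 (Cenpe), −1.30 to 0.82 (Top2a), −1.61 to 1.24 (Ccnb1), −0.56 to 0.11 (Mybl2), −0.052 to 0.76 (Cdk1), −0.24 to 0.32 (Foxm1) and −0.27 to 1.37 (Mki67). Same-numbered QSC libraries showed no shared deviation (correlations −0.12, −0.031 and −0.014). With so few libraries this cannot exclude a pairing by number. With the replicate number as a block, 79 genes and 1 mitotic gene were called, and the member median was 0.04, positive where it was −0.07 without the block.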
